A study of Homo sapiens with 6 samples.

Results

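The genes described here are 34 genes of the ATF4 and amino acid response (stress response factors, amino acid transporters and enzymes that make serine, one-carbon units, proline and other amino acids), taken by their names in the deposited table. Each of the 34 names matched 1 row of the deposited table of 24878 genes, and all 34 passed the filter on low counts that left 14601 genes for testing. The cells are MOLM-13, an established human line from a monocytic leukaemia (AML-M5), profiled by poly-A RNA-seq in 6 libraries. The groups are a KO-labelled group (genotype CaMK2D-KO, a doxycycline-inducible knockout vector) after 3 days of doxycycline, the same after 5 days, and control cells with no doxycycline (a control vector, by the series' design text), with 2 libraries in each. The controls therefore differ from the KO-labelled cells in vector and in doxycycline together, and the effects of the knockout, the vector and the drug cannot be told apart. The labels do not say whether the libraries of a group are separate cultures or the cells 1 clone, so every p-value reflects only how far these libraries differ within a group, possibly for technical reasons.

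ATF4 is a transcription factor made mainly through increased translation of its mRNA. When a stress kinase phosphorylates the initiation factor eIF2, most protein synthesis slows while upstream reading frames in the ATF4 mRNA let ribosomes reach its coding sequence. This is the integrated stress response: ATF4 then switches on partner factors such as DDIT3 (CHOP), feedback regulators such as TRIB3 and PPP1R15A, amino acid transporters and the enzymes that make asparagine, serine, glycine and proline. Because the control acts on translation, the level of ATF4 mRNA alone does not report ATF4 activity.

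Total counts per library ranged from 15456770 to 21081298, and the 34 genes held 1.23% and 1.29% of counts at day 3, 1.17% and 1.28% at day 5, and 0.996% and 0.962% in the controls. CAMK2D, the gene the vector targets, had 14.7 and 15.6 CPM (library-size scaled counts, with TMM factors) at day 3, 28.98 and 28.1 CPM at day 5, and 23.0 and 14.5 CPM in the controls. It was not past the threshold on either day (by edgeR, adjusted p = 0.437 and 0.118), so its mRNA level does not mark the knockout. Of 12 markers of monocytic leukaemia cells, 12 were in the table and their summed level was 1475 to 1589 CPM at day 3, 1450.4 to 1757 CPM at day 5 and 3417 to 3969 CPM in the controls, with CD68 listed at 0 counts in 5 of the 6 libraries. The 3 lymphoid markers in the table summed to 2.14 to 9.45 CPM, 1.53 to 2.90 CPM and 37.7 to 106 CPM in the same order, the 2 erythroid and megakaryocytic markers to 21.8 to 23.0, 20.5 to 24.1 and 23.1 to 32.0 CPM, and the 5 epithelial and stromal markers to 122 to 124, 120.5 to 123 and 213 to 366 CPM. Mitochondrial genes held 0.868% to 0.929%, 1.08% to 1.14% and 2.52% to 3.05% of counts. The part of these shifts in the results that follow was not tested. In such bulk samples fewer cells of a type and less RNA per cell cannot be told apart.

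At day 3, 12 of the 34 genes were higher than in the controls and 0 were lower by edgeR's quasi-likelihood test at an adjusted p under 0.05, where 5.72% of all tested genes were called higher and 5.99% lower. At day 5, 9 were higher and 2 were lower, against 7.44% and 7.05% of all tested genes. The median log2 fold change of the 34 was 0.30 at day 3 and 0.13 at day 5, and that of all tested genes was -0.000118 and 0.01. In 21 of the 34 both day 3 libraries lay above both controls and in 3 below, where 30.3% and 30.1% of all tested genes did so. At day 5 these numbers were 16 and 7, against 29.6% and 28.4%. Both comparisons use the same controls. The genes higher on both days were 7 in number: the factors ATF5 and DDIT3, the regulators TRIB3, PPP1R15A, SESN2 and STC2, and the transporter subunit SLC3A2. A further 5 were called higher at day 3 alone (DDIT4, EIF4EBP1, SLC7A5, SLC6A9 and PYCR1) and 2 at day 5 alone (CEBPB and XPOT), while PHGDH and PSPH were lower at day 5 and 18 genes were called on neither day. Calls on 1 day alone were not shown to differ between the days in the main fit. There the direct comparison given further on found 0 of the 34 past the threshold. Among these genes DESeq2 called PYCR1 lower at day 5 than at day 3 (adjusted p = 0.0241). The day 5 count of 9 fell to 5 with a model of the compared libraries alone, where all genes called higher fell from 1087 to 592. The day 3 count of 12 fell without any 1 library other than control replicate 2. The day 5 count fell without any 1 KO-labelled library. These fits left 1 library in a group. Leaving out a library lowered the all-gene counts in some fits too, as given in the closing section.

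**Figure D1:**
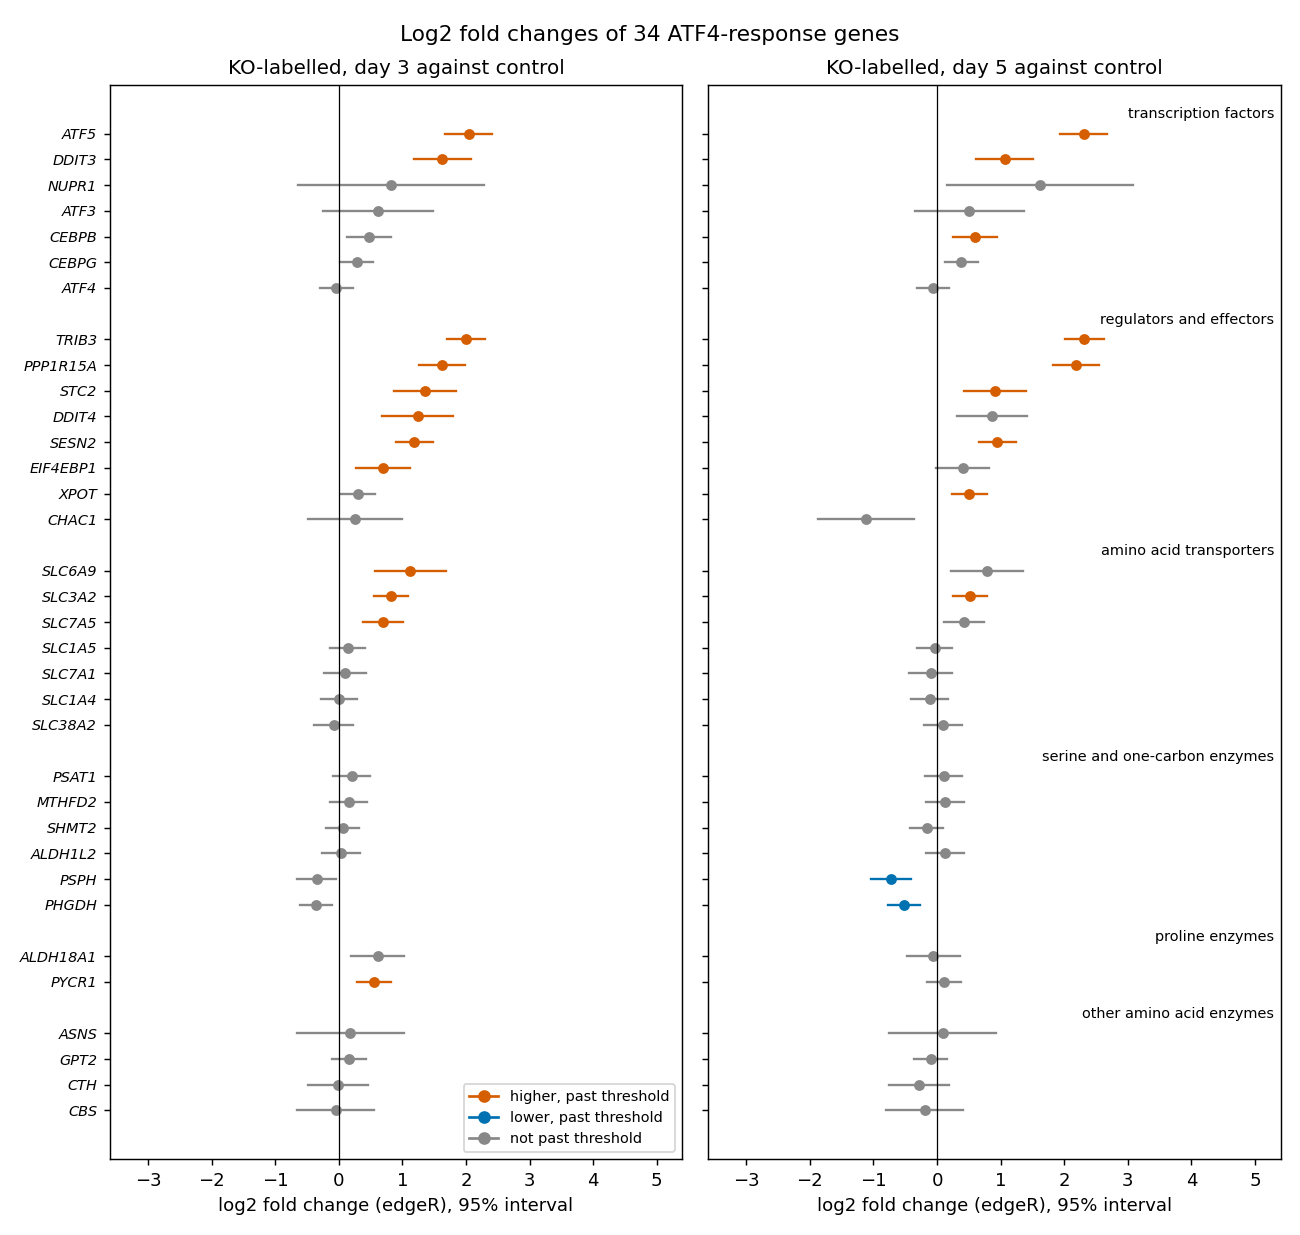
Log2 fold changes of the 34 genes at day 3 (left) and day 5 (right) against control, as edgeR estimates (points) with 95% intervals (lines), grouped by role from top to bottom. Orange marks genes past the threshold and higher (12 and 9), blue those lower (0 and 2), grey the rest. Among genes past the threshold the largest rises are in ATF5, TRIB3, PPP1R15A and DDIT3, and the serine and one-carbon enzymes lie near or below 0.

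The promoter windows bear on how these genes are read, because ATF4 with a C/EBP partner binds a composite element, the amino acid response element, whose core letters are TGATGNAA. RefSeq promoter windows (GRCh38.p14, from 250 bases before the start to 50 after it) were matched by symbol for 27 of the 34 genes. NUPR1, EIF4EBP1, PSPH, SHMT2, ALDH1L2, PYCR1 and GPT2 had no entry. TGATGNAA, searched on both strands, was found in 5 of the 27 windows (18.5%) and in 1003 of 27305 windows of the same length (3.67%). The 5 are ASNS at position -68, CHAC1 at -209 and ATF3 at -191 relative to the start, SLC7A1 at 8 and SLC3A2 at 38. Of the 14 genes called higher on either day, 12 had a window and 1 of these held the core (8.33%), namely SLC3A2. Of the remaining genes, 4 of 15 windows held it (26.7%). With so few genes these shares were not compared by a test. ASNS, 1 of the 4, had 54 to 69 counts per library, and its value is uncertain for the reason given further on. The 250 bases upstream of the start used for the window are shown for 4 genes, with the core in capitals. ASNS and CHAC1 hold it and were not past the threshold on either day. TRIB3 and ATF5, the genes with the largest fold changes at both days, hold none in this stretch. The stretches are chr7:97872409-97872658 on the minus strand (ASNS) and, on the plus strand, chr15:40953221-40953470 (CHAC1), chr20:381045-381294 (TRIB3) and chr19:49928656-49928905 (ATF5). In CHAC1 the core lies on the opposite strand. A match is a description of the letters, not of binding, and elements outside this window were not searched.
ASNS: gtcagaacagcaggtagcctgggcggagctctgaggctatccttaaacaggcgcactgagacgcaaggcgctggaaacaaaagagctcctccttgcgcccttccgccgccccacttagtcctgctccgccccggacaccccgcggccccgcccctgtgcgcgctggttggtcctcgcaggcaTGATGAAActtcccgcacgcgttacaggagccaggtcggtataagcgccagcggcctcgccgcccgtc
CHAC1: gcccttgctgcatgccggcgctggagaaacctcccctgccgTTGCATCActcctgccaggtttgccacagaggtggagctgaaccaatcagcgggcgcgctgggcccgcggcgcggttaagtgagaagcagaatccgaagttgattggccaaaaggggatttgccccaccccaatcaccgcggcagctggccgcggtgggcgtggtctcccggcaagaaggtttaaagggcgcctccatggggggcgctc
TRIB3: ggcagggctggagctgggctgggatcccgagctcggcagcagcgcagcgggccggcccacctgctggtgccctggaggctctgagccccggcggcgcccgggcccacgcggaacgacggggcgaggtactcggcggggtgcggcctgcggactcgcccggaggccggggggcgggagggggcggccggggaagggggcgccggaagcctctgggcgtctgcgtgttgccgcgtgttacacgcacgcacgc
ATF5: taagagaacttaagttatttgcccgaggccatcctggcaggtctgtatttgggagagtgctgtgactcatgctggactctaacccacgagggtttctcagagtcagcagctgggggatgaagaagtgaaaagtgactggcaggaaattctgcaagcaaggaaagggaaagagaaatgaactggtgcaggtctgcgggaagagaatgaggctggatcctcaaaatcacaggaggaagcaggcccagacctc

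Among the transcription factors, ATF5 and DDIT3 rose on both days, CEBPB rose at day 5, and the level of ATF4 mRNA moved little. ATF4 had 819 and 839.7 CPM at day 3, 797 and 831 CPM at day 5, and 862 and 839.9 CPM in the controls. All 6 libraries lay close together, and day 3 replicate 2 equalled the lower control to within 1 CPM. ATF4's log2 fold change was -0.04 (95% interval -0.29 to 0.22) at day 3 and -0.06 (-0.32 to 0.19) at day 5, and by edgeR the adjusted p was 0.864 and 0.744. ATF4 lies on chromosome 22 at 39519695 to 39522685 on the plus strand (GRCh38, GENCODE release 29) and shares no exonic bases with another annotated gene.

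ATF5, a related bZIP factor under the same translational control that drives mitochondrial protein stress genes, had 98.3 and 106 CPM at day 3, 109 and 136 CPM at day 5, and 22.7 and 26.8 CPM in the controls. The groups did not overlap, with every KO-labelled library far above both controls. The estimated log2 fold change was 2.04 (SE 0.16, by edgeR, adjusted p = 0.00101) at day 3 and 2.31 (SE 0.16, by edgeR, adjusted p = 0.000392) at day 5. ATF5 (chromosome 19, 49928702 to 49933935, plus strand) shares 775 of 2954 exonic bases with other genes, most of them with NUP62 on the opposite strand, and the library kit is not stated to keep strand. NUP62 itself stood at 111 ± 0.925 CPM at day 3, 85.2 ± 14.2 CPM at day 5 and 119 ± 12.6 CPM in the controls (SD, n = 2).

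DDIT3, which encodes CHOP, a factor of prolonged stress and cell death, had 28.7 and 32.1 CPM at day 3, 18.8 and 22.3 CPM at day 5, and 8.93 and 10.7 CPM in the controls. It was highest at day 3, with day 5 between the day 3 and control libraries and no overlap. Its log2 fold change was 1.63 (SE 0.20, by edgeR, adjusted p = 0.00354) at day 3 and 1.07 (SE 0.20, by edgeR, adjusted p = 0.0127) at day 5, and the day 5 call was lost without KO day 5 replicate 2 (by edgeR, adjusted p = 0.0649). DDIT3 (chromosome 12, 57516588 to 57521737, minus strand) shares 518 of its 1307 exonic bases with other genes, most of them with MARS on the opposite strand, and MARS averaged 657 ± 19.8 CPM at day 3, 662 ± 7.39 CPM at day 5 and 617 ± 41.0 CPM in the controls (SD, n = 2).

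The C/EBP factors CEBPB and CEBPG, which pair with ATF4 on DNA, were modestly above the controls in each KO-labelled library. CEBPB had 97.3 and 108 CPM at day 3, 98.6 and 124 CPM at day 5, and 77.6 and 69.9 CPM in the controls. Its log2 fold change passed the threshold at day 5 (0.59, SE 0.15, by edgeR, adjusted p = 0.0345) and not at day 3 (0.47, by edgeR, adjusted p = 0.0785), and the day 5 call was lost when control replicate 2, either day 3 library or KO day 5 replicate 2 was left out (by edgeR, adjusted p 0.0681 to 0.188) and with a model of the compared libraries alone. CEBPG had 193 and 202 CPM, 204 and 219 CPM, and 167 and 158 CPM in the same order, with log2 fold changes of 0.28 and 0.38 (by edgeR, adjusted p = 0.141 and 0.0598). ATF3, a stress-induced factor that feeds back on DDIT3, was uneven, at 35.2 and 47.3 CPM at day 3, 23.9 and 52.8 CPM at day 5, and 27.6 and 26.4 CPM in the controls. It was not past the threshold on either day (by edgeR, adjusted p = 0.312 and 0.390). NUPR1, a small stress-induced chromatin protein, was barely detected, at 2.24 and 3.13 CPM at day 3, 3.23 and 6.17 CPM at day 5, and 0.642 and 2.35 CPM in the controls (by edgeR, adjusted p = 0.436 and 0.127).

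The feedback and effector genes held the largest group of calls, with 6 of 8 higher at day 3 and 5 of 8 at day 5 and 0 lower, against 5.72% and 7.44% of all tested genes higher. Their median log2 fold change was 1.22 at day 3 and 0.89 at day 5. TRIB3, a pseudokinase that is induced by ATF4 and DDIT3 and restrains them, had the smallest adjusted p of the 34 genes on both days (edgeR, 0.000401 and 0.000152). It had 794 and 803 CPM at day 3, 937 and 1056 CPM at day 5, and 213 and 187 CPM in the controls. Its log2 fold change was 1.997 (95% interval 1.70 to 2.30) and 2.32 (2.01 to 2.62), a fold of 3.99 and 4.98.

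PPP1R15A encodes GADD34, the stress-induced subunit that directs a phosphatase to eIF2 and so restores translation. It had 151 and 132 CPM at day 3, 181 and 235 CPM at day 5, and 45.8 and 45.8 CPM in the controls. Both day 5 libraries lay above both day 3 libraries, and these above the controls. The estimated log2 fold change was 1.62 (SE 0.16, by edgeR, adjusted p = 0.00180) at day 3 and 2.18 (SE 0.16, by edgeR, adjusted p = 0.000392) at day 5.

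SESN2 (sestrin 2) and DDIT4 (REDD1) both restrain the growth kinase complex mTORC1, SESN2 as a leucine sensor. SESN2 had 262 and 285 CPM at day 3, 213 and 249.6 CPM at day 5, and 124 and 116 CPM in the controls, giving log2 fold changes of 1.19 (SE 0.13, by edgeR, adjusted p = 0.00250) and 0.95 (SE 0.13, by edgeR, adjusted p = 0.00450). DDIT4 had 615 and 718 CPM at day 3, 415 and 612 CPM at day 5, and 232 and 332 CPM in the controls. Its groups did not overlap the controls on either day. DDIT4 passed the threshold at day 3 (log2 fold change 1.24, SE 0.24, by edgeR, adjusted p = 0.0205) and narrowly not at day 5 (0.86, by edgeR, adjusted p = 0.0508). DESeq2 called DDIT4 higher at day 5 (adjusted p = 0.00464). The day 3 call was lost when control replicate 1 or either day 3 library was left out (by edgeR, adjusted p 0.0602 to 0.0902), and DDIT4 shares 847 of 2058 exonic bases with its antisense gene DDIT4-AS1.

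STC2, a secreted glycoprotein induced by stress of the endoplasmic reticulum, had 159.6 and 187 CPM at day 3, 126 and 129 CPM at day 5, and 52.4 and 82.7 CPM in the controls. Its log2 fold change was 1.36 (SE 0.21, by edgeR, adjusted p = 0.00964) at day 3 and 0.92 (SE 0.21, by edgeR, adjusted p = 0.0283) at day 5. The day 5 call was lost without KO day 5 replicate 1 or 2 (by edgeR, adjusted p = 0.0955 and 0.111) and with a model of the compared libraries alone. EIF4EBP1, which encodes 4E-BP1, an inhibitor of cap-dependent translation, had 558 and 556 CPM at day 3, 465 and 440.4 CPM at day 5, and 274 and 411 CPM in the controls. It passed the threshold narrowly at day 3 (log2 fold change 0.70, by edgeR, adjusted p = 0.0463) and not at day 5 (0.40, by edgeR, adjusted p = 0.180). Leaving out any library other than control replicate 2 ended that call (by edgeR, adjusted p 0.0636 to 0.170), as did a model of the compared libraries alone and keeping only genes that reached 5 CPM in 2 or more libraries.

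XPOT, the exporter of transfer RNAs from the nucleus, had 951 and 936 CPM at day 3, 1101 and 1069.6 CPM at day 5, and 806 and 718 CPM in the controls. It was called at day 5 (log2 fold change 0.51, SE 0.12, by edgeR, adjusted p = 0.0266), a call lost without any 1 library other than control replicate 1 (by edgeR, adjusted p 0.0502 to 0.111) and with a model of the compared libraries alone. CHAC1, a glutathione-degrading enzyme and a usual marker of ATF4 activity, took another course. It had 61.5 and 86.1 CPM at day 3, 19.8 and 36.9 CPM at day 5, and 54.5 and 68.6 CPM in the controls. Day 3 overlapped the controls, and both day 5 libraries lay below every other library. Neither day passed the threshold, with log2 fold changes of 0.26 (by edgeR, adjusted p = 0.632) and -1.12 (95% interval -1.88 to -0.36, by edgeR, adjusted p = 0.0620). CHAC1 at day 5 was called lower by edgeR without the filter on low counts (adjusted p = 1.63e-09) or without KO day 5 replicate 2 (adjusted p = 0.0231), and by DESeq2 (adjusted p = 0.00304).

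**Figure D2:**
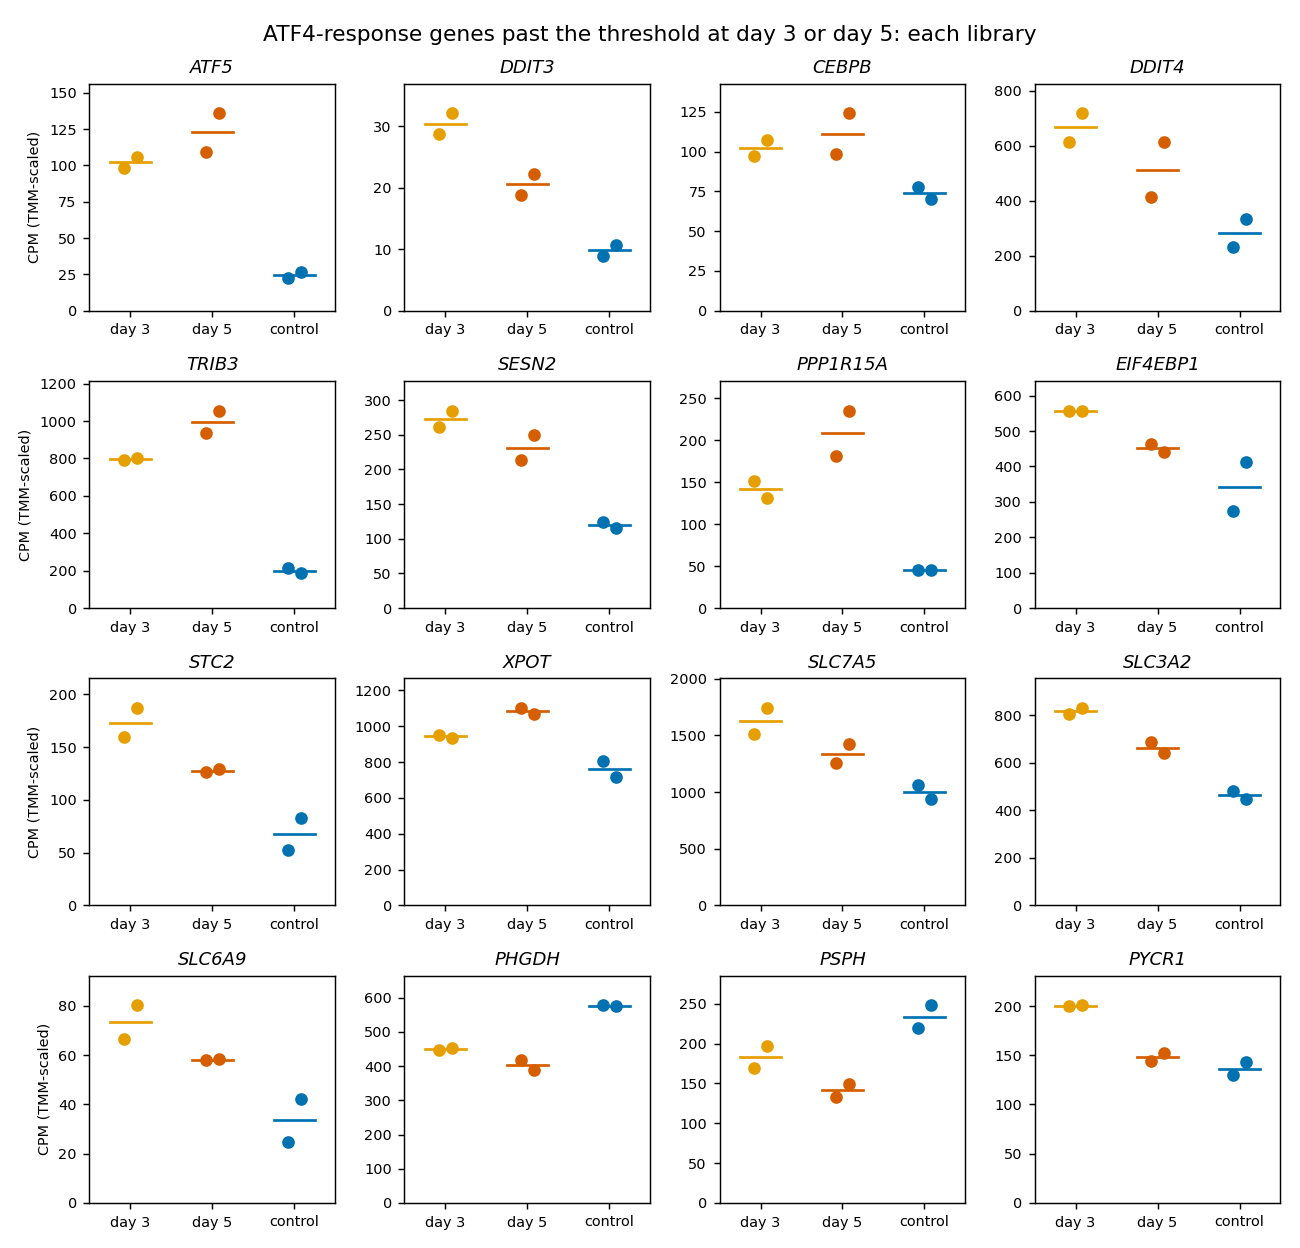
TMM-scaled CPM (linear axes from 0) of the 16 genes called on either day, with 1 point per library and a line at the mean of the 2 libraries, for KO-labelled day 3, KO-labelled day 5 and control from left to right. The KO-labelled points lie above the controls for 14 genes and below them for PHGDH and PSPH. TRIB3 reaches 1056 CPM at day 5 against at most 213 CPM in the controls.

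Of the 7 amino acid transporters, 3 were called higher at day 3 (all genes 5.72%) and 1 at day 5 (7.44%). The other 4 stayed near the control level. SLC7A5 (LAT1) and SLC3A2 (CD98 heavy chain) together form the exchanger that brings leucine and other large neutral amino acids into the cell. SLC7A5 had 1516 and 1742 CPM at day 3, 1254 and 1424 CPM at day 5, and 1064 and 939.9 CPM in the controls. SLC3A2 had 805 and 829 CPM at day 3, 685 and 639 CPM at day 5, and 481 and 446 CPM in the controls. For both, day 3 was highest, day 5 intermediate and the groups did not overlap. At day 3 the log2 fold change was 0.70 for SLC7A5 (SE 0.14, by edgeR, adjusted p = 0.0181) and 0.82 for SLC3A2 (SE 0.12, by edgeR, adjusted p = 0.00621). At day 5 it was 0.42 for SLC7A5 (by edgeR, adjusted p = 0.0766) and 0.51 for SLC3A2 (by edgeR, adjusted p = 0.0247). SLC6A9, the glycine transporter GlyT1, had 66.7 and 80.1 CPM at day 3, 57.8 and 58.4 CPM at day 5, and 24.9 and 42.3 CPM in the controls, giving log2 fold changes of 1.12 (by edgeR, adjusted p = 0.0270) and 0.79 (by edgeR, adjusted p = 0.0682).

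The day 3 calls of these 3 transporters were lost without KO day 3 replicate 1 or 2 (by edgeR, adjusted p 0.0726 and 0.148 for SLC7A5, 0.0577 and 0.0623 for SLC3A2, 0.0726 and 0.128 for SLC6A9). SLC6A9 at day 5 was called higher by DESeq2 (adjusted p = 0.0230). The SLC6A9 day 3 call was also lost with a model of the compared libraries alone. The day 5 call of SLC3A2 was lost without any 1 KO-labelled library (by edgeR, adjusted p 0.0762 to 0.116) and in the same fit of the libraries compared. The other transporters showed small differences. SLC7A1 (CAT-1), which carries arginine and lysine, had 566 and 557 CPM at day 3, 501 and 481 CPM at day 5, and 596 and 458 CPM in the controls. SLC38A2 (SNAT2), a sodium-coupled carrier that amino acid starvation usually raises, had 425 and 384 CPM, 444 and 471 CPM, and 464 and 392 CPM in the same order. SLC1A4 (ASCT1), a carrier of alanine and serine, had 239.6 and 245 CPM, 216 and 230.2 CPM, and 263 and 221 CPM. SLC1A5 (ASCT2), the glutamine exchanger, had 349 and 356 CPM, 294 and 330.4 CPM, and 338 and 303 CPM. Each of these 4 had a log2 fold change between -0.12 and 0.14 on both days, and none passed the threshold.

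Of the 6 serine and one-carbon enzymes, 0 passed the threshold as higher on either day, against 5.72% and 7.44% of all tested genes. With so few genes, 0 is near those shares. At day 3, 0 were lower (all genes 5.99%), and at day 5 PHGDH and PSPH were lower (all genes 7.05%). PHGDH catalyses the first step of serine synthesis from a glycolytic intermediate, PSAT1 the next and PSPH the last. PHGDH had 447 and 454 CPM at day 3, 417 and 389.9 CPM at day 5, and 578 and 577 CPM in the controls. PSPH had 169 and 197 CPM at day 3, 133 and 149.6 CPM at day 5, and 219 and 248 CPM in the controls. In both genes the KO-labelled libraries lay below both controls. The log2 fold change at day 5 was -0.52 for PHGDH (SE 0.11, by edgeR, adjusted p = 0.0212) and -0.73 for PSPH (SE 0.14, by edgeR, adjusted p = 0.0136), and at day 3 it was -0.36 (by edgeR, adjusted p = 0.0749) and -0.35 (by edgeR, adjusted p = 0.131). The PHGDH call was lost without any 1 KO-labelled library (by edgeR, adjusted p 0.0571 to 0.119) and with a model of the compared libraries alone, and the PSPH call without KO day 5 replicate 1 (by edgeR, adjusted p = 0.0709). PSPH has a pseudogene copy, PSPHP1, counted at 15.3 ± 2.39 CPM at day 3, 17.2 ± 0.706 CPM at day 5 and 12.04 ± 2.30 CPM in the controls (SD, n = 2), so its value is uncertain.

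PSAT1, between them in the pathway, had 736 and 838 CPM at day 3, 709 and 763 CPM at day 5, and 652 and 718 CPM in the controls, giving log2 fold changes of 0.20 and 0.10 (by edgeR, adjusted p = 0.332 and 0.628). SHMT2, the mitochondrial enzyme that splits serine into glycine and a one-carbon unit, had 1089 and 1179 CPM, 989 and 946 CPM, and 1098 and 1071 CPM in the same order. MTHFD2, the next mitochondrial folate enzyme, had 323 and 367 CPM, 315 and 362 CPM, and 315 and 306 CPM. ALDH1L2, which releases formyl groups from mitochondrial folate, had 186 and 204 CPM, 215 and 201 CPM, and 206 and 174 CPM. The log2 fold changes of these 3 ran from -0.17 to 0.15 over both days, and none passed the threshold (by edgeR, adjusted p 0.368 to 0.887).

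Of the proline enzymes, PYCR1 was higher at day 3 and close to the controls at day 5. PYCR1, the mitochondrial reductase of the last step of proline synthesis, had 200.1 and 201 CPM at day 3, 144 and 152 CPM at day 5, and 129.6 and 143 CPM in the controls. The estimated log2 fold change was 0.55 (SE 0.12, by edgeR, adjusted p = 0.0227) at day 3, a call lost when control replicate 1 or either day 3 library was left out (by edgeR, adjusted p 0.0575 to 0.143), and 0.12 (by edgeR, adjusted p = 0.549) at day 5. ALDH18A1, the enzyme of the first steps from glutamate, had 169 and 213 CPM at day 3, 111 and 129 CPM at day 5, and 107 and 143 CPM in the controls, giving log2 fold changes of 0.61 (by edgeR, adjusted p = 0.0667) and -0.06 (by edgeR, adjusted p = 0.861). DESeq2 called ALDH18A1 higher at day 3 (adjusted p = 0.0234). PYCR1 and ALDH18A1 were both highest in the day 3 libraries. PYCR1 shares 858 of its 2886 exonic bases with other genes. Of these, 450 are shared with AC145207.4 on the opposite strand and 408 with MYADML2 on the same strand. MYADML2 was counted at 9 and 8 reads in the controls and 0 in each KO-labelled library.

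The remaining amino acid enzymes showed no calls on either day. With so few genes this is near the all-gene shares (5.72% higher and 5.99% lower at day 3, 7.44% and 7.05% at day 5). ASNS, asparagine synthetase and a classical ATF4 target, had 65 and 69 counts at day 3, 65 and 56 at day 5, and 54 and 60 in the controls, or 3.39 and 3.79 CPM, 3.68 and 3.06 CPM, and 3.47 and 2.88 CPM. The 6 libraries overlapped, with log2 fold changes of 0.18 (95% interval -0.66 to 1.02) and 0.09 (-0.76 to 0.93). ASNS (chromosome 7, 97852118 to 97872542, minus strand) shares 1985 of its 4455 exonic bases with AC079781.5 on the same strand, counted at 37 and 52 reads at day 3, 47 and 84 at day 5, and 36 and 61 in the controls. The sources used here do not give how reads in shared bases were counted, so the ASNS value is uncertain. GPT2, the mitochondrial alanine transaminase, had 308 and 334 CPM at day 3, 272 and 264 CPM at day 5, and 276 and 299 CPM in the controls. CTH, the last enzyme from methionine to cysteine, had 52.9 and 73.6 CPM, 44.1 and 61.0 CPM, and 64.1 and 63.8 CPM in the same order. CBS, the enzyme before it, had 55.8 and 70.9 CPM, 53.7 and 61.0 CPM, and 48.1 and 82.9 CPM, and is uncertain because a near-identical copy, CBSL, is annotated and was counted at 0 to 3 reads per library. The log2 fold changes of these 3 lay between -0.28 and 0.16 (by edgeR, adjusted p 0.397 to 0.970).

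Levels per transcript length, from the deposited FPKM values, spread widely among the 34 genes. ATF4 was the most abundant in the controls, at a mean of 338 FPKM (321 at day 3 and 332 at day 5 for comparison), followed by EIF4EBP1 at 318 and PSAT1 at 312, which do not differ beyond the spread of their libraries. At day 3, EIF4EBP1 led with a mean of 505 FPKM, followed by PSAT1 at 349.9 and SLC7A5 at 334. TRIB3 had 226 FPKM at day 3, 298 at day 5 and 58.2 in the controls, where it ranked 15 of 34. The median of the 34 in the controls was 41.4 FPKM. ASNS, at 0.784 FPKM at day 3, 0.775 at day 5 and 0.712 in the controls, and NUPR1, at 0.460, 0.853 and 0.262, were the 2 genes under 1 FPKM in the controls. The ASNS level is uncertain because of the exonic bases it shares with AC079781.5.

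**Figure D3:**
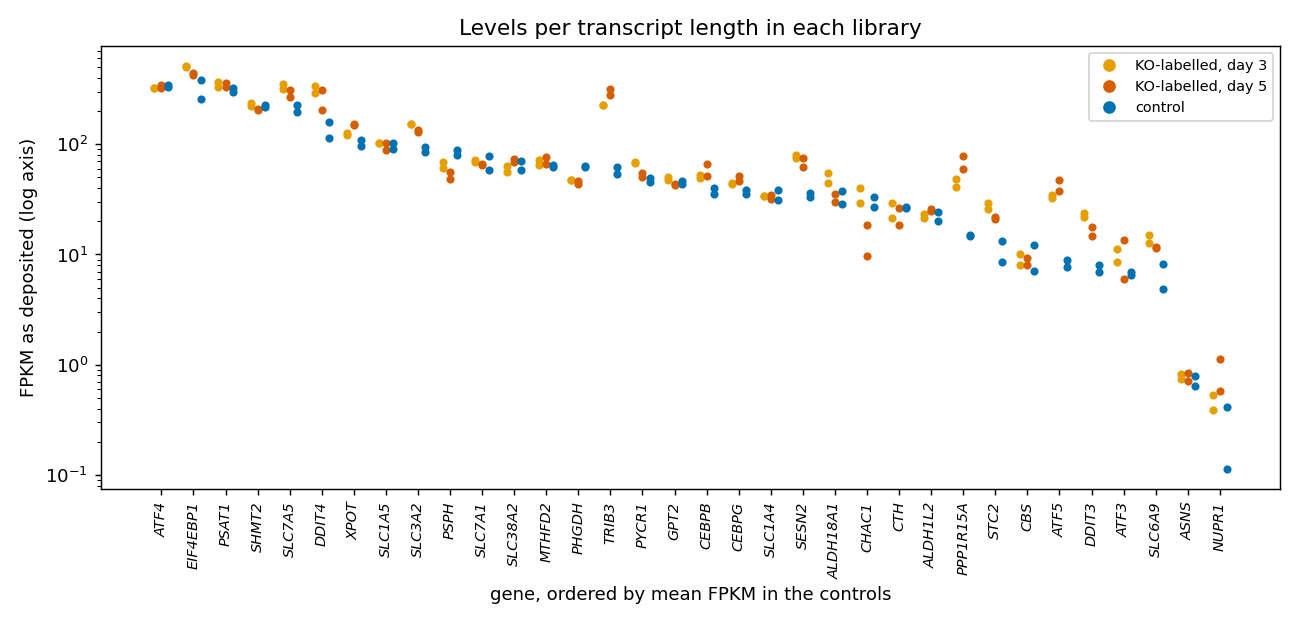
Deposited FPKM of the 34 genes in each library on a log axis, ordered by the mean of the controls, with KO-labelled day 3, KO-labelled day 5 and control points from left to right within each gene. ATF4 heads the order at 338 FPKM in the controls, and ASNS (value uncertain) and NUPR1 end it under 1 FPKM. TRIB3, PPP1R15A, ATF5 and DDIT3 stand out as genes whose KO-labelled points lie well above their controls.

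Day 5 was also compared with day 3 directly, which tests a difference between the days without the controls. Of the 34 genes, 0 were higher and 0 were lower by edgeR, against 0.0274% and 0% of all tested genes, which is 4 of 14601 higher. At an unadjusted p under 0.05, 8 of the 34 passed (2206 of all genes), and DESeq2 called 0 higher and 3 lower (223 and 212 of all genes): CHAC1, PYCR1 and ALDH18A1. The median log2 fold change of the 34 was -0.17 (all genes 0.02) and 25 of the 34 were below 0, against 6985 of 14601 tested genes. The widest difference was in CHAC1, with 19.8 and 36.9 CPM at day 5 and 61.5 and 86.1 CPM at day 3 (log2 fold change -1.38, 95% interval -2.14 to -0.62, by edgeR, adjusted p = 0.189). ALDH18A1 and PYCR1 had log2 fold changes of -0.67 (-1.09 to -0.25) and -0.44 (-0.70 to -0.17), DDIT3 -0.56 (interval below 0 throughout), and PPP1R15A 0.56 (0.21 to 0.91), all with both libraries of a day on the same side and by edgeR, adjusted p from 0.199 to 0.256.

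Other genes of the pathway were read from 6 lists that share no gene with the 34. Their counts are to be read beside the shares of all tested genes, which were 5.72% higher and 5.99% lower at day 3 and 7.44% higher and 7.05% lower at day 5. Of 27 tested genes reported elsewhere as ATF4 or CHOP targets, 6 were higher and 1 lower at day 3, and 5 and 1 at day 5, with a median log2 fold change of 0.37 and 0.40. They included LONP1, the mitochondrial matrix protease, at 986 and 997 CPM at day 3, 875 and 867 CPM at day 5, and 427 and 419 CPM in the controls (by edgeR, adjusted p = 0.00135 and 0.00188). VEGFA, the vascular growth factor, had log2 fold changes of 1.05 and 0.78 (by edgeR, adjusted p = 0.00354 and 0.00807), and GDF15, a secreted stress cytokine, had 4.35 and 5.85 (by edgeR, adjusted p = 0.00222 and 0.000731). SQSTM1, an autophagy receptor, passed at day 5 (0.97, by edgeR, adjusted p = 0.00916), a call lost without KO day 5 replicate 2 (by edgeR, adjusted p = 0.0512). The gene lower at day 3 was SLC7A11, the cystine transporter subunit, at 65.3 and 67.6 CPM at day 3, 127 and 119.6 CPM at day 5, and 94.2 and 92.2 CPM in the controls, named here after its values were seen.

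Among 18 genes for the eIF2 kinases, eIF2 and eIF2B, 3 were higher and 1 lower at day 3 (all genes 5.72% and 5.99%), and 4 and 2 at day 5 (7.44% and 7.05%), the lower calls being near the all-gene shares. EIF2AK3, which encodes PERK, the eIF2 kinase of the endoplasmic reticulum, had 19.0 and 17.5 CPM at day 3, 16.9 and 14.0 CPM at day 5, and 8.61 and 6.999 CPM in the controls. Its log2 fold change was 1.23 (SE 0.22, by edgeR, adjusted p = 0.0143) and 0.98 (SE 0.22, by edgeR, adjusted p = 0.0252). The day 3 call was lost without KO day 3 replicate 1 or 2 (by edgeR, adjusted p 0.0704 to 0.0947), and the day 5 call without any 1 library other than control replicate 1 (by edgeR, adjusted p 0.0555 to 0.1098). Of the same list, IMPACT was called higher on both days (log2 fold change 0.75 and 0.69, by edgeR, adjusted p = 0.0149 and 0.0170). At day 5 EIF2S2 was called higher (0.60, by edgeR, adjusted p = 0.0148) and EIF2B5 lower (-0.62, by edgeR, adjusted p = 0.0144). Each of these calls was lost in at least 1 fit that left out a library. The other eIF2 kinases, named here after their values were seen, were uneven between replicates and not past the threshold. EIF2AK4 (GCN2, the sensor of uncharged transfer RNA) had 25.9 and 39.1 CPM at day 3, 22.4 and 39.9 CPM at day 5, and 28.3 and 41.6 CPM in the controls. EIF2AK2 (PKR, activated by double-stranded RNA) had 68.5 and 148 CPM at day 3, 46.6 and 137 CPM at day 5, and 47.5 and 43.5 CPM in the controls. EIF2AK1 (HRI, the haem-regulated kinase) had 200.4 and 130.4 CPM, 190.3 and 109.8 CPM, and 211 and 133 CPM in the same order.

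Of 16 other transporters, 1 was higher and 3 lower at day 3 (all genes 5.72% and 5.99%), and 1 and 4 at day 5 (7.44% and 7.05%). The higher calls were at the all-gene share and the lower calls above it, with a median log2 fold change of -0.05 and -0.08. SLC7A7 (-1.38 and -1.65) and SLC7A6 (-0.89 and -0.89) were called lower on both days. The SLC7A6 calls and the day 3 call of SLC7A7 did not hold under every alternative fit. SLC43A1 (LAT3) had 123 and 146 CPM at day 3, 108 and 107 CPM at day 5, and 63.9 and 58.6 CPM in the controls, while SLC6A6, the taurine carrier, had 59.0 and 49.7 CPM, 90.2 and 71.7 CPM, and 203 and 185 CPM in the same order.

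Of 18 other one-carbon, serine and glycine enzymes, 2 were higher and 1 lower at day 3 (all genes 5.72% and 5.99%), and 2 and 2 at day 5 (7.44% and 7.05%), which with so few genes is near the all-gene shares. Of 17 other proline, glutamine, aspartate and transaminase enzymes, 6 were higher and 1 lower at day 3 (all genes 5.72% and 5.99%), and 4 and 1 at day 5 (7.44% and 7.05%), the lower calls being near the all-gene shares. GOT1, the cytosolic aspartate transaminase, had 162 and 173 CPM at day 3, 131 and 122 CPM at day 5, and 67.7 and 62.8 CPM in the controls. PYCR3, the cytosolic counterpart of PYCR1, had 38.4 and 46.0 CPM, 19.5 and 22.7 CPM, and 15.9 and 16.3 CPM in the same order, with a call at day 3 (log2 fold change 1.39, by edgeR, adjusted p = 0.00419) and none at day 5 (0.39, by edgeR, adjusted p = 0.174). GCLM, a subunit of the enzyme that starts glutathione synthesis, had 48.7 and 51.9 CPM at day 3, 116 and 122 CPM at day 5, and 36.6 and 35.2 CPM in the controls. GCLM was among the 4 genes past the threshold between the days (log2 fold change 1.24, by edgeR, adjusted p = 0.0303), a call lost without any 1 of the 4 KO-labelled libraries (0.185 to 0.425), and its day 3 call was lost without any 1 of the 6 libraries (by edgeR, adjusted p 0.0698 to 0.246). GLUL, glutamine synthetase, was lower, at 539 and 551 CPM at day 3, 611 and 655 CPM at day 5, and 914 and 932 CPM in the controls. Its log2 fold changes were -0.76 and -0.54 (by edgeR, adjusted p = 0.00725 and 0.0182), with the day 3 call lost without KO day 3 replicate 1 or 2 (by edgeR, adjusted p 0.0832 to 0.0905) and the day 5 call when KO day 3 replicate 1 or either day 5 library was left out (0.0505 to 0.0900). Of 24 genes of amino acid sensing by mTORC1, 0 were called on either day by edgeR, where 5 had an unadjusted p under 0.05 on each day, against 4223 and 4504 of the 14601 genes tested.

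**Figure D4:**
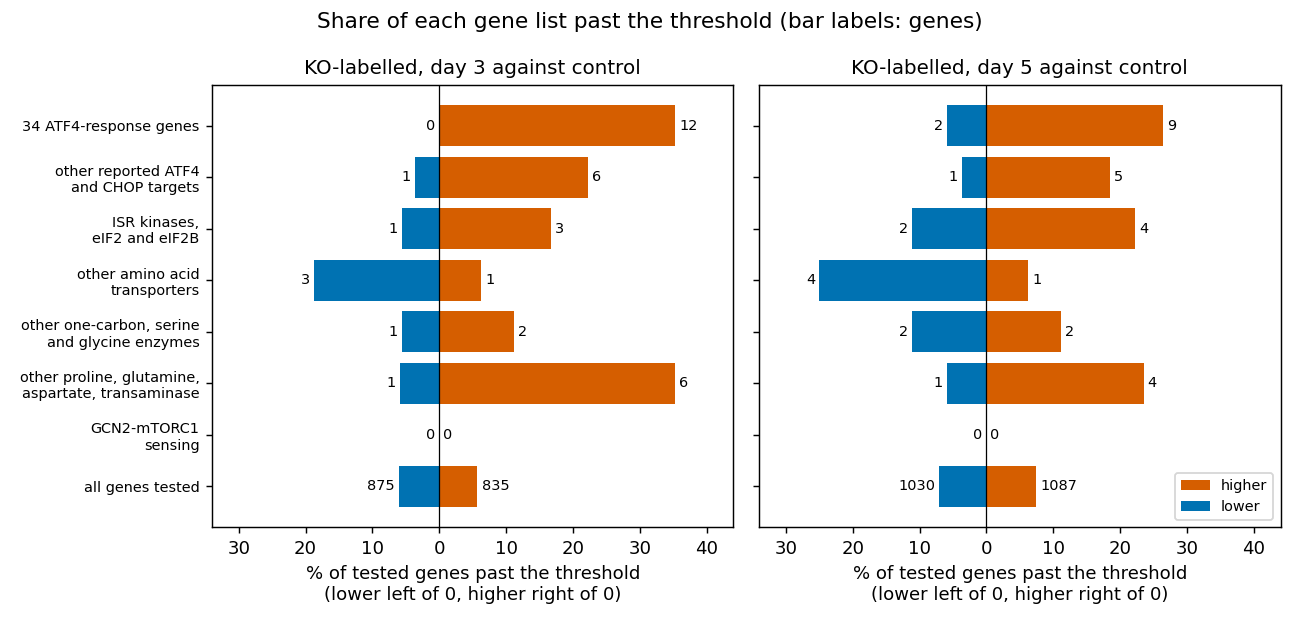
Share of tested genes past the edgeR threshold in each list at day 3 (left) and day 5 (right) against control, as bars from 0 to the right for higher and to the left for lower, with the number of genes at each bar end. The 34 ATF4-response genes have 12 higher and 0 lower at day 3 and 9 and 2 at day 5, the mTORC1 sensing genes have 0, and all tested genes stand at 5.72% and 7.44% higher.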

How the data were processed

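Poly-A RNA from MOLM-13 cells was sequenced by the authors in 6 libraries, 2 for each of 3 groups assigned from the labels. Per the file headers, each gene has a raw read count and an FPKM value for every library in the deposited table. The tools HISAT2, HTSeq 0.11.2, DESeq2 1.26.0 and the GRCh38 build are named, per the submitters' processing notes, with no role given. The sources used here name no annotation, strand setting or counting option. All 24878 identifiers and names matched GENCODE release 29, which gave coordinates.

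Counts as deposited were fitted with edgeR 4.0.16 in R 4.3.3: filterByExpr (minimum count 10, minimum total 15), TMM factors, and 1 robust quasi-likelihood model of the 3 groups without a block (3 residual degrees of freedom), tested on 14601 genes with Benjamini-Hochberg adjustment at 0.05. A prior count of 0.125 entered each log2 fold change, and its standard error (SE) was its size divided by the root of the F statistic. Intervals cover the spread between libraries. A count of 0 allows up to 0.193 CPM (3 counts) in the shallowest library. Replicate libraries differed by more than sampling noise (chi-square over degrees of freedom 17.4 to 37.7).

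The 34 genes and the other lists were chosen with earlier results of these data known. Named genes were all 34, CAMK2D, and up to 4 of each other list with the smallest adjusted p past the threshold. The script was tested on simulated data. As alternatives, every result was refitted with upper-quartile or relative log expression factors, with no filter or one of 5 CPM in 2 or more libraries, with DESeq2 1.42.0, on the compared groups alone, with a block for replicate number, and without each library.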

Additional observations from a re-analysis of the deposited data

How the results depend on the processing

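Of the calls against control among the 34 genes, 6 of 12 at day 3 and 4 of 11 at day 5 held under all 13 alternatives, and no called gene changed sign. Of the genes not called, 5 at day 3, 8 at day 5 and 7 between the days passed under at least 1 alternative. With DESeq2 those against control were ALDH18A1 and PHGDH (lower) at day 3, and CEBPG, DDIT4, SLC7A5, SLC6A9 and CHAC1 (lower) at day 5. Each group has 2 libraries, of 15456770 counts or more, and what greater depth or more libraries would show was not tested. The scaling alternatives moved the median of all genes by less than 0.1.

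Among the 34, genes lower at day 3 numbered 1 when 5 CPM was asked of 2 or more libraries, 1 with DESeq2 and 2 with the replicate block, against 0. Fitting only the groups compared gave 5 higher and 1 lower at day 5, and the block gave 15 higher. Between the days, no filter gave 1 higher and 4 lower, the block 1 and 5, and DESeq2 3 lower. Leaving out each library gave 6 to 13 higher at day 3, 4 to 11 higher and 0 to 2 lower at day 5, and 0 between the days.

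Over all genes, the calls higher and lower were 1425 and 1500 at day 3 without a filter, 1990 and 2074 with the block, and 1294 and 1344 with DESeq2. At day 5 they were 2305 and 2113 with the block, 592 higher with only the groups compared, and 1784 lower without a filter. Between the days they were 266 and 333 without a filter, 648 and 469 with the block, and 223 and 212 with DESeq2. Leaving out each library gave 120 to 1069 higher and 162 to 863 lower at day 3, 360 to 940 and 363 to 934 at day 5, and 1 to 9 and 0 to 7 between the days. The cause was not tested.

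The block follows the letters A and B in the library titles, where A and B correspond to replicates 1 and 2 in the descriptions. The labels do not say what a letter marks. Deviations from the group means of libraries with the same letter correlated at 0.37 to 0.47 over genes in all 3 pairs of groups, and with 2 letters this is a hint from the data. Under the block CHAC1 was lower at day 5 (log2 fold change -1.16, edgeR adjusted p = 1.38e-05).

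Log2 fold changes that turned sign were short of the threshold in both fits. SLC1A4 at day 3 was -0.0069 with relative log expression factors, -0.023 with the 5 CPM filter and -0.0068 with DESeq2, and SLC7A6 between the days was 0.014 with that filter and 0.0070 with the block. Leaving out each library in turn at day 3 gave ALDH1L2 -0.071 to 0.17, CAMK2D -0.59 to 0.068, CBS -0.39 to 0.41, CTH -0.26 to 0.21, MAT2A -0.30 to 0.13, SLC1A4 -0.11 to 0.14, SLC38A2 -0.19 to 0.048, SLC7A1 -0.077 to 0.30. Leaving out each library in turn at day 5 gave ALDH18A1 -0.26 to 0.14, ALDH1L2 -0.014 to 0.25, ASNS -0.070 to 0.22, ATF3 -0.17 to 0.96, CBS -0.54 to 0.22, SLC1A4 -0.27 to 0.0063, SLC1A5 -0.14 to 0.035, SLC38A2 -0.049 to 0.22, SLC7A1 -0.31 to 0.093. Leaving out each library in turn between the days gave ALDH1L2 -0.0094 to 0.14, ASNS -0.25 to 0.031, ATF3 -0.79 to 0.34, CEBPB -0.058 to 0.26, MTHFD2 -0.15 to 0.054, SDSL -0.28 to 0.54, SLC7A6 -0.13 to 0.082.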
